A study of Mus musculus with 2 samples.

Results

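Transcripts of 9 cytokine and cytokine receptor genes were followed through the cell classes of CD11c-selected cells from mouse mammary tumours: Il12b, Il15, Il6, Il10, Tnf, Osm, Il27, Il23a and Il15ra. The genes were chosen by name, as cytokines that dendritic cells, macrophages and monocytes are known to make, and are 9 of the 27998 genes counted. Both libraries carried the same labels: wild type, CD11c-positive, myeloid cells, tumour microenvironment, PyMT C57BL/6N mice. In PyMT mice a viral oncogene, the middle T antigen of polyoma virus, drives mammary tumours, and CD11c is an integrin found on many dendritic cells and macrophages. No untreated tissue, other genotype, age or time point was part of the design, so the comparisons below are between cell classes, each measured in replicate 1 and replicate 2. Nothing in the labels says that the replicates were separate animals. The p-values set a class difference against the spread of such differences between these libraries, pooled over the classes. That spread may be technical.

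Il12b encodes the p40 subunit that is shared by interleukin-12, where it pairs with p35, and interleukin-23, where it pairs with the p19 subunit encoded by Il23a. Interleukin-12 acts through STAT4 on T and NK cells, and interleukin-15 is presented to them in trans, bound to the receptor chain that Il15ra encodes. Interleukin-10 restrains the production of inflammatory cytokines, TNF is released from the cell surface by the protease ADAM17, and interleukin-6 and oncostatin M (Osm) signal through receptors that contain the gp130 chain. Interleukin-27 pairs the subunit encoded by Il27 with EBI3.

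Each of the following promoters belongs to a gene that led a different cell class, so they are shown for comparison. Sequences were those of RefSeq on GRCm38.p6, from 250 bases before to 50 bases after the start of the transcript, and 4 of the 9 genes matched an entry. Il12b, highest in mature dendritic cells, lies on chromosome 11 (GRCm38 chr11:44400063-44414033, plus strand) and its promoter is chr11:44399813-44400112. Il6, highest in fibroblast-like cells and among myeloid classes in monocyte-like cells, lies at chr5:30013114-30019981 on the plus strand, with the promoter at chr5:30012864-30013163. Tnf, highest in the macrophage classes among the 10 classes compared, lies at chr17:35199381-35202007 on the minus strand, with the promoter at chr17:35201958-35202257. Capitals mark matches to the motifs named below.
Il12b promoter: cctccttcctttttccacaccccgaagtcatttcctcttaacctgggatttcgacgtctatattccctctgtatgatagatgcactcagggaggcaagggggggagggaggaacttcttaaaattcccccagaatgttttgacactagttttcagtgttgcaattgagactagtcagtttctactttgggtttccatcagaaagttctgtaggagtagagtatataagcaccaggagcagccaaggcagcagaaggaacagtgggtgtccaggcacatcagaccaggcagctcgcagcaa
Il6 promoter: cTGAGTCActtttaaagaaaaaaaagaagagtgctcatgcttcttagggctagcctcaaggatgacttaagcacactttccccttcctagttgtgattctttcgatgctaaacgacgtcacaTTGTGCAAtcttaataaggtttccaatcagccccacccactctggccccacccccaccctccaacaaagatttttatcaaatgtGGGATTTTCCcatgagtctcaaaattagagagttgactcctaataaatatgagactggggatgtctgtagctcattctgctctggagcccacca
Tnf promoter: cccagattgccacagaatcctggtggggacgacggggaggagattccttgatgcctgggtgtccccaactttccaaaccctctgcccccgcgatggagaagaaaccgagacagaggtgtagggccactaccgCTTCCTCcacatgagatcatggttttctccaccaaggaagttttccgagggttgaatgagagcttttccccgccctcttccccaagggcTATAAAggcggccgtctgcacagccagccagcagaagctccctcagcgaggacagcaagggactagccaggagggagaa
Motifs were searched on both strands: the interferon-stimulated response element, AP-1 as TGANTCA, C/EBP as TTGCNNAA, PU.1 as GAGGAAG, the TATA box as TATAAA, and the kappaB consensus. Il6 held a match to AP-1 at -249 from the start, a match to C/EBP at -128 on the minus strand and a match to the kappaB consensus at -44. Tnf held a match to PU.1 at -118 on the minus strand and a TATA box at -29. Il12b held no match to these letters in this window, which says nothing about the factors themselves. Of all 27025 promoters of this length, 7.93% held AP-1, 10.8% C/EBP, 8.18% kappaB, 13.5% PU.1, 14.2% the TATA box and 3.49% the interferon element. A match is a description of letters and not a binding site.

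The AU-rich nonamer TTATTTATT, a sequence that decay factors of the ZFP36 family are known to bind, occurred in the 3′ untranslated regions of 3 of the 9 genes (GENCODE M21). Tnf held 5, partly overlapping, in 764 bases, Il27 held 2 in 285 bases and Il23a held 1 in 657 bases. The first of the Tnf sites is printed with the nonamers in capitals (chr17:35199683-35199712, minus strand).
Tnf AU-rich site: acttaTTATTTATTATTTATTTATTattta
Il12b, Il15, Il6, Il10, Osm and Il15ra held none. Of 21007 genes with such a region, whose median length was 961 bases, 7.66% held at least 1.

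Replicate 1 held 17369071 UMIs (unique molecular identifiers, one per captured molecule) and 1900 cells after filtering, with a median of 5670 UMIs per cell. Replicate 2 held 13317214 UMIs and 1216 cells, with a median of 7141.5 UMIs, and 2 cell barcodes occurred in both libraries. Clusters were named from marker genes and carry the suffix "like": 49 and 26 cells in replicates 1 and 2 were mature dendritic cell (DC)-like, 115 and 60 were like conventional DC type 1 (cDC1) and 146 and 157 like conventional DC type 2 (cDC2). Macrophage-like cells numbered 537 and 436, monocyte-like cells 423 and 241, and a cluster with Folr2, Cbr2 and Cd209f, called resident macrophage-like, 298 and 45. Not every cell was myeloid, since 55 and 47 T cell-like, 109 and 40 epithelial-like and 23 and 25 fibroblast-like cells were also captured, and 101 and 69 cells were cycling. Summed markers of fibroblasts stood at 11.1 to 57.9 CPM (UMIs of a gene per 1000000 UMIs) in the 6 myeloid classes against 38236 to 48549 in fibroblast-like cells, and those of neutrophils at 0 to 39.3. Median depth was 5455 and 6936 UMIs in macrophage-like, 5280 and 6819 in monocyte-like and 5972.5 and 7438 in cDC2-like cells. Cluster 0, which held 249 and 231 of the macrophage-like cells, had 5 of 10 macrophage markers raised but none of them among its 10 leading genes, where the cDC1 marker Cadm1 was found. Values for macrophage-like cells without it are given where they differ. Levels below are CPM within a class and library, and both libraries' values are given with replicate 1 first.

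**Figure D1:**
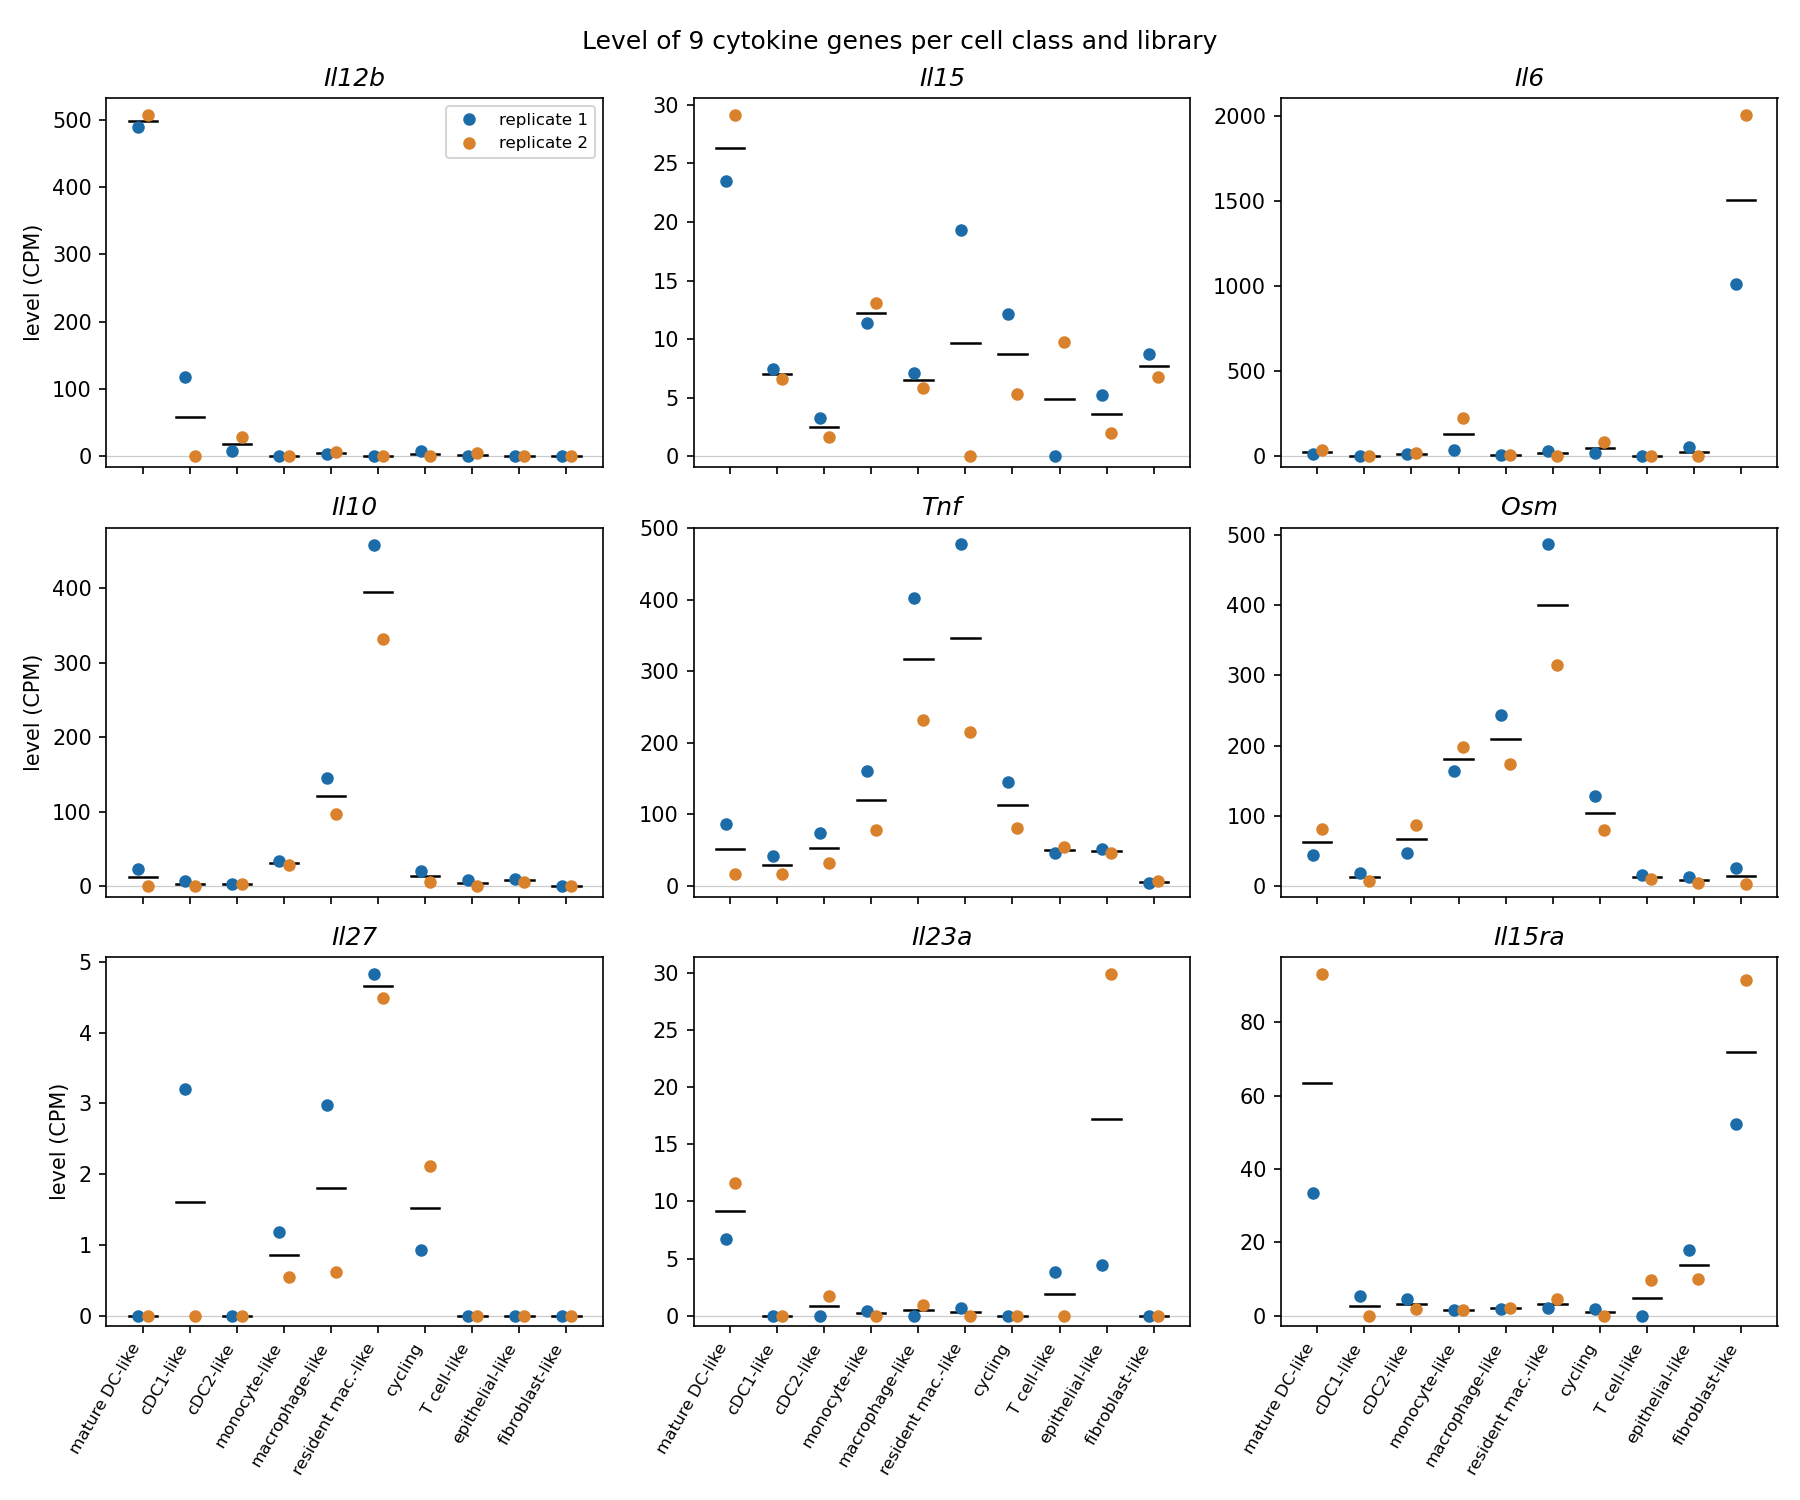
Level of each of the 9 genes in 10 cell classes, in CPM of the class; each point is 1 library, the line is the mean of both libraries, and every panel has its own axis from 0. Il12b stands at 489 and 507 in mature DC-like cells, Il10 and Tnf peak in the 2 macrophage classes, Osm peaks in resident macrophage-like cells and Il6 peaks in fibroblast-like cells.

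Il12b was a transcript of dendritic cells, and above all of mature DC-like cells, the Ccr7- and Fscn1-bearing cells known to carry antigen to lymph nodes. There it stood at 489 and 507 CPM, in 24 of 49 and 9 of 26 cells. In cDC1-like cells it stood at 118 CPM in replicate 1 and at 0 in replicate 2, where a count of 0 allows up to 4.95 CPM. In cDC2-like cells, which present antigen mainly to CD4 T cells, it stood at 7.76 and 29.0 CPM. The libraries of mature DC-like cells lay above those of every other class, whereas cDC1-like and cDC2-like levels overlapped. Together these 3 dendritic classes held 92.3% and 82.3% of all Il12b UMIs found in cells.

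Mature DC-like cells were above cDC2-like cells by a log2 fold of 4.44 (SE 0.52, adjusted p = 3.02e-08, edgeR quasi-likelihood with Benjamini-Hochberg adjustment; 5.53 and 3.74 in the replicates). Against cDC1-like cells the log2 fold was 2.92 (SE 0.46, edgeR adjusted p = 6.71e-06). Here replicate 1 gave a log2 fold of 1.90, and in replicate 2, with no Il12b UMI in cDC1-like cells, mature DC-like cells were at least 102-fold higher. Against macrophage-like cells, at 2.98 and 7.06 CPM, the log2 fold was 6.59 (SE 0.53, edgeR adjusted p = 7.21e-13), and without cluster 0 it was 9.05. DESeq2 gave each of these differences the same direction and did not call it, with adjusted p = 0.332, 0.524 and 0.0653. The other alternatives with a test kept all 3 calls, and over all alternatives the adjusted p ran from 2.11e-46 to 0.332, from 2.06e-25 to 0.524 and from 3.37e-99 to 0.0653. Macrophage-like cells were below cDC2-like cells by a log2 fold of -2.15 (SE 0.71, edgeR adjusted p = 0.0210). That call was lost in 4 of 10 alternatives, with DESeq2 at adjusted p = 0.693 and the lowest of the 10 at 2.33e-06. Without cluster 0, which held 7 and 23 of the 10 and 23 macrophage-like UMIs, it was -4.63. Monocyte-like and resident macrophage-like cells held 1 Il12b UMI each, both in replicate 1. The pooled ratios of macrophage-like to these classes were 21.9 (95% counting interval 3.66 to 890) and 8.35 (1.40 to 340). Neither passed the edgeR test (adjusted p = 0.0690 and 0.338, with ranges of 7.26e-05 to 0.757 and 0.0398 to 0.965 over the alternatives), and outside cluster 0 macrophage-like cells held 3 Il12b UMIs.

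The Il12b transcripts were concentrated in few cells. The 5 highest cells held 62.3% and 85.1% of the UMIs of mature DC-like cells, with 32 and 33 UMIs in the highest. Leaving the highest cell of each class and library out gave a log2 fold of 4.57 against cDC2-like cells. Thinned to 1900 UMIs per cell, 36% of mature DC-like, 4.57% of cDC1-like, 1.98% of cDC2-like and 0.514% of macrophage-like cells held an Il12b UMI, against 44% of mature DC-like and 6.29% of cDC1-like cells before thinning. Of the 149 epithelial-like cells, which should lack the transcript, none did, which allows a share of up to 2.01%. Median depths were 5874 and 7263 UMIs in mature DC-like and 8635 and 9531 in epithelial-like cells. Barcodes of at most 50 UMIs, a measure of free RNA, held Il12b at 6.87 and 5.58 CPM.

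All 111 Il12b UMIs of cDC1-like cells came from 11 of the 115 cells of replicate 1, with 43 in a single cell. Among these 11 cells, 9 held Ccr7, the receptor that guides migration to lymph nodes, and 9 held Ccl22, a chemokine of mature dendritic cells. Among the other 104 cDC1-like cells of that library, 11 held Ccr7 and 8 held Ccl22. The cDC1 markers were still present, with Xcr1 in 7 and Clec9a in 9 of the 11 cells, against 47 and 52 of the 104. Fscn1, which was found in 22 of the 24 Il12b-positive mature DC-like cells of replicate 1, was in 0 of the 11. The cells with and without Il12b had median depths of 6928 and 7481.5 UMIs. These cells were looked at after the Il12b values were seen, they come from 1 library, and no test was made. Nearly all mature DC-like cells held Ccr7, a marker that named the class, so its share could not part them: 24 of 24 Il12b-positive and 24 of 25 Il12b-negative cells held it in replicate 1. Ccl22 was in 23 of 24 against 18 of 25 cells in replicate 1 and in 8 of 9 against 14 of 17 in replicate 2.

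**Figure D2:**
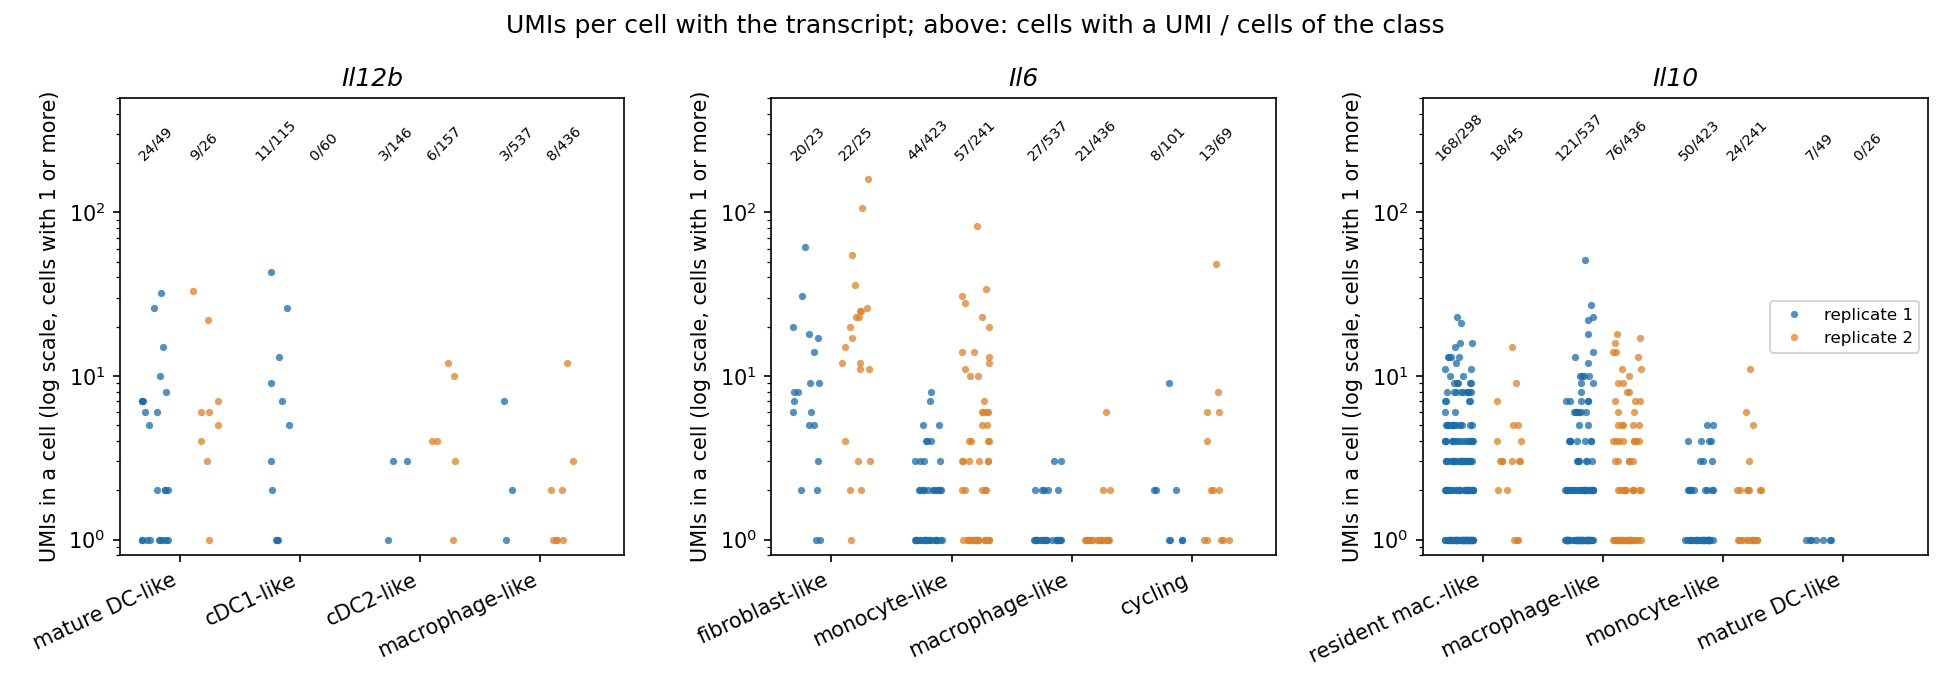
UMIs per cell on a log axis for Il12b, Il6 and Il10, with 1 point for each cell that held at least 1 UMI and, above each group, the cells with a UMI over the cells of the class. Il12b in cDC1-like cells is found in 11 of 115 cells of replicate 1 and 0 of 60 cells of replicate 2.

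Its partner for interleukin-23, Il23a, was rare, with 11 and 22 UMIs in all classes. Epithelial-like cells held 6 and 15 of them, and mature DC-like cells 2 and 2. Mature DC-like cells were above macrophage-like cells, which held 0 and 3, by a ratio of 18.7 (95% counting interval 3.17 to 128; edgeR adjusted p = 0.0357). The call was lost without the replicate block at adjusted p = 0.0805 and without cluster 0 at 0.114, within a range of 0.0105 to 0.114 over 9 alternatives. Il27 was also rare, with 24 and 6 UMIs, of which macrophage-like cells held 10 and 2 and resident macrophage-like cells 7 and 1. Mature DC-like and cDC2-like cells held none, and Il27 did not pass the filter on low counts. Il27 overlaps Apobr on the other strand (chr7:126589010-126594941), and how strand was used in counting is not given in the sources used here, so its few UMIs are uncertain.

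Il15 and Il15ra, the cytokine and the chain that presents it, were both highest in mature DC-like cells when whole myeloid classes were compared. Il15 (chr8:82331632-82403222, minus strand) stood at 23.5 and 29.1 CPM there, from 7 and 5 UMIs, and in monocyte-like cells at 11.4 and 13.1, from 29 and 24 UMIs. It stood at 7.46 and 6.60 CPM in cDC1-like, 7.16 and 5.84 in macrophage-like and 3.32 and 1.70 in cDC2-like cells. Mature DC-like cells did not overlap any of the other 9 classes compared, but within the monocyte-like class cluster 12, marked by Cxcl9 and interferon-induced genes, was higher in both libraries. It stood at 31.1 and 84.4 CPM, from 15 and 4 UMIs in 63 and 6 cells, against 7.14 and 13.8 in cluster 1 and 5.99 and 6.41 in cluster 5. Outside the classes compared, 16 neutrophil-like cells of replicate 2 stood at 75.1 CPM, from only 3 Il15 UMIs. In resident macrophage-like cells Il15 was at 19.3 CPM in replicate 1 and at 0 in replicate 2, whose 45 cells allow up to 13.5 CPM. Il15 was higher in mature DC-like than in cDC2-like cells by a log2 fold of 3.14 (SE 0.83, edgeR adjusted p = 0.00705; 2.17 and 2.95 in the replicates). It was higher than in macrophage-like cells by a log2 fold of 1.94 (SE 0.64, edgeR adjusted p = 0.0207). The latter call was lost without the highest cells, at adjusted p = 0.170, and without cluster 0, at 0.0870, and ran from 0.00166 to 0.170 over 10 alternatives. Against cDC1-like cells the log2 fold was 1.77 (edgeR adjusted p = 0.0966). Barcodes of free RNA held Il15 at 8.35 and 8.93 CPM, above its level in cDC1-like, cDC2-like and macrophage-like cells in both libraries.

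Il15ra (chr2:11705290-11734317, plus strand) stood at 33.5 and 93.2 CPM in mature DC-like cells, from 10 and 16 UMIs. Outside the myeloid classes, fibroblast-like cells stood at 52.2 and 91.5 CPM, overlapping mature DC-like cells, and epithelial-like cells at 17.8 and 9.97. The other myeloid classes held at most 7 UMIs in a library and were below free RNA, at 9.33 and 10.6 CPM. Il15ra was higher in mature DC-like cells than in cDC2-like cells by a log2 fold of 4.11 (SE 0.71, edgeR adjusted p = 4.73e-05), than in cDC1-like cells by 4.03 (SE 0.74, edgeR adjusted p = 6.8e-05) and than in macrophage-like cells by 4.81 (SE 0.63, edgeR adjusted p = 8.09e-08). The replicates gave 2.36 and 4.56, 2.2 and 5.65, and 3.24 and 4.49, so replicate 2 had the larger difference in each, and every alternative with a test kept these 3 calls. After thinning, 10.7% of mature DC-like and 0.514% of macrophage-like cells held a UMI, against 21.3% of mature DC-like cells before. Il12b and Il15ra were found together in 5 of 49 and 3 of 26 mature DC-like cells.

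Il10 was a transcript of macrophages, and most of all of the resident macrophage-like cluster. It stood at 459 and 333 CPM there, at 146 and 96.4 in macrophage-like and at 33.3 and 28.4 in monocyte-like cells, and these 3 classes held 95.7% and 97.1% of its UMIs in cells. No neighbours in that order overlapped. In dendritic classes it stood at 6.40 and 0 CPM in cDC1-like, 3.32 and 2.56 in cDC2-like and 23.5 and 0 in mature DC-like cells. The gene lies at chr1:131019845-131024974 on the plus strand. Replicate 1 was the higher library in 9 of 10 classes and neither in the other, fibroblast-like cells, where both were at 0.

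Resident macrophage-like cells were above macrophage-like cells by a log2 fold of 1.59 (SE 0.22, edgeR adjusted p = 1.04e-06; 1.63 and 1.39 in the replicates). DESeq2 gave an adjusted p of 0.0543, the highest of 10 alternatives, of which the lowest was 9.87e-11. Over these alternatives, which include the fit without cluster 0, the log2 fold ran from 0.92 to 2.03. Macrophage-like cells were above cDC2-like cells by 5.13 (SE 0.42, edgeR adjusted p = 8.67e-13). Mature DC-like cells were below macrophage-like cells by a log2 fold of -3.11 (SE 0.48, edgeR adjusted p = 1.89e-06), and monocyte-like cells were below them by -1.99 (SE 0.24, edgeR adjusted p = 3.95e-08). Every alternative with a test kept these last 3 calls. Mature DC-like cells stood at a log2 fold of 2.03 over cDC2-like cells (edgeR adjusted p = 0.145), from 7 UMIs that were all in replicate 1. After thinning, 39.1% of resident macrophage-like, 13.2% of macrophage-like and 5.27% of monocyte-like cells held an Il10 UMI, against 0.980% of T cell-like cells. Before thinning the first 3 shares were 54.2%, 20.2% and 11.1%. Median depths were 4243 and 4826 UMIs in resident macrophage-like and 3456 and 3647 in T cell-like cells, and free RNA held Il10 at 115 and 65.3 CPM. This free RNA level was above monocyte-like cells and every dendritic class in both libraries. It was also above macrophage-like clusters 0 (87.4 and 48.1 CPM) and 7 (24.5 and 45.3 CPM).

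Macrophage-like clusters differed in Il10 among themselves. Cluster 3 stood at 367 and 217 CPM, cluster 0 at 87.4 and 48.1, cluster 7 at 24.5 and 45.3, and cluster 16 at 0 in both libraries. Cluster 3 was below the resident macrophage-like cluster (459 and 333 CPM) in each library, but the ranges of these clusters overlapped. Cells of cluster 3 with and without Il10 did not part by the genes that mark the resident macrophage-like cluster: Folr2 was in 13 of 65 cells with an Il10 UMI and in 28 of 112 without one in replicate 1, and in 8 of 48 and 22 of 110 in replicate 2. Among resident macrophage-like cells, 136 of 298 and 11 of 45 held both Il10 and Tnf, and among macrophage-like cells 102 of 537 and 57 of 436 did.

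Of the 10 classes compared, Tnf, like Il10, was highest in the 2 macrophage classes, and Osm was highest in resident macrophage-like cells. Tnf stood at 477 and 216 CPM in resident macrophage-like, 402 and 232 in macrophage-like and 161 and 78.1 in monocyte-like cells. Dendritic classes were lower, with 74.3 and 32.4 CPM in cDC2-like, 87.1 and 17.5 in mature DC-like and 41.6 and 16.5 in cDC1-like cells. Replicate 1 was higher in 8 of 10 classes, and the 2 macrophage classes overlapped while macrophage-like and monocyte-like cells did not. Macrophage-like cells were above cDC2-like cells by a log2 fold of 2.45 (SE 0.24, edgeR adjusted p = 4.71e-11; 2.31 and 2.59 in the replicates). Mature DC-like cells were below macrophage-like cells by -2.51 (SE 0.31, edgeR adjusted p = 1.66e-08), and monocyte-like cells were below them by -1.46 (SE 0.20, edgeR adjusted p = 7.46e-07). Resident and other macrophage-like cells differed by a log2 fold of 0.03 (edgeR adjusted p = 0.99), with 0.23 in replicate 1 and -0.48 in replicate 2.

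Osm (chr11:4236420-4241026, plus strand) stood at 486 and 315 CPM in resident macrophage-like, 244 and 174 in macrophage-like, 163 and 198 in monocyte-like and 47.7 and 86.9 in cDC2-like cells. In mature DC-like cells it stood at 43.6 and 81.5 CPM and in cDC1-like cells at 19.2 and 6.60, the lowest of the myeloid classes. Resident macrophage-like cells lay above macrophage-like cells in both libraries, and macrophage-like and monocyte-like cells overlapped (log2 fold of monocyte-like over macrophage-like cells -0.20, edgeR adjusted p = 0.681). Osm was lower in cDC1-like than in cDC2-like cells by a log2 fold of -2.45 (SE 0.43, edgeR adjusted p = 4.96e-05; -1.28 and -3.58 in the replicates). It was higher in mature DC-like than in cDC1-like cells by 1.99 (SE 0.57, edgeR adjusted p = 0.0113), a call lost without the highest cells at 0.0645, within a range of 0.000938 to 0.0645 over 9 alternatives.

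Osm in macrophage-like cells was above cDC2-like cells by a log2 fold of 1.38 (SE 0.28, edgeR adjusted p = 0.000138), with 2.21 in replicate 1 and 0.80 in replicate 2. In mature DC-like cells it was below macrophage-like cells by -1.83 (SE 0.39, edgeR adjusted p = 0.000286). DESeq2 did not call these differences, at adjusted p = 0.0601 and 0.0522, the highest of 10 alternatives each, of which the lowest were 2.66e-08 and 2.39e-08. Resident macrophage-like cells were above macrophage-like cells by 0.88 (SE 0.25, edgeR adjusted p = 0.0141). That call was kept in 6 of 10 alternatives and lost without the replicate block (0.144), without doublet removal (0.160), without cluster 0 (0.161) and with DESeq2 (0.399), and the lowest adjusted p was 0.00197.

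After thinning, Tnf was found in 51.3% of resident macrophage-like, 37.4% of macrophage-like, 19.0% of monocyte-like and 10.6% of cDC2-like cells. Epithelial-like cells gave 8.72% and T cell-like cells, some of which are known to make TNF, 10.8%, so the shares in cDC2-like, mature DC-like (10.7%) and cDC1-like (6.29%) cells were near those of these non-myeloid classes. Of 48 fibroblast-like cells, 0 held Tnf after thinning, which allows a share of up to 6.25%. Osm was found in 46.6%, 27.7%, 24.1% and 11.2% of the same 4 classes, against 2.68% of epithelial-like and 1.14% of cDC1-like cells. Before thinning, Tnf was in 73.8%, 66.5% and 36.6% and Osm in 66.2%, 54.1% and 47.1% of resident macrophage-like, macrophage-like and monocyte-like cells. Free RNA held Tnf at 198 and 136 CPM, above its level in monocyte-like and dendritic cells in both libraries, and Osm at 144 and 192 CPM, above its level in dendritic cells. In replicate 2 the free RNA level of Osm was also above macrophage-like cells, at 174 CPM, and close to monocyte-like cells, at 198. Immediate early and heat shock genes, which are known to respond to tissue handling, summed to 11088 and 7541 CPM in resident macrophage-like, 9515 and 7411 in macrophage-like, 7541 and 6201 in monocyte-like, 6979 and 6185 in cDC2-like and 6194 and 5230 in mature DC-like cells. Like Tnf, this sum was higher in replicate 1 in each of these classes. In cDC1-like cells, which had the least Tnf and Osm of the myeloid classes, these genes had a median log2 fold of -0.03 over cDC2-like cells. Mature DC-like cells had 5 of the 14 genes called lower than cDC1-like cells and 0 higher, where 7.65% of all genes tested were lower and 7.73% higher. The part of these genes in the levels of Tnf, Osm and Il10 was not tested.

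Within the macrophage-like class, Tnf was high in clusters 0 (516 and 262 CPM) and 3 (517 and 227) and lower in clusters 7 (130 and 109) and 16 (27.1 and 49.3). Osm ran otherwise, with 317 and 274 CPM in cluster 7, 282 and 211 in cluster 3, 178 and 138 in cluster 0 and 54.3 and 74.0 in cluster 16. Cluster 7 thus had more Osm than cluster 0 and less Tnf in both libraries. Among monocyte-like cells, the Ly6c2- and Plac8-bearing cluster 5 had the most Osm (300.3 and 358 CPM) and, at 286 and 149 CPM, more Tnf than the Ear2- and Fn1-bearing cluster 1 (64.2 and 36.2). The lower Tnf of monocyte-like than macrophage-like cells therefore rested on cluster 1: with cluster 5 alone the log2 fold was -0.50 (edgeR adjusted p = 0.257, the highest of 12 alternatives that began at 1.59e-12). Cells with both transcripts were 226 of 537 and 126 of 436 macrophage-like and 159 of 298 and 16 of 45 resident macrophage-like cells.

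**Figure D3:**
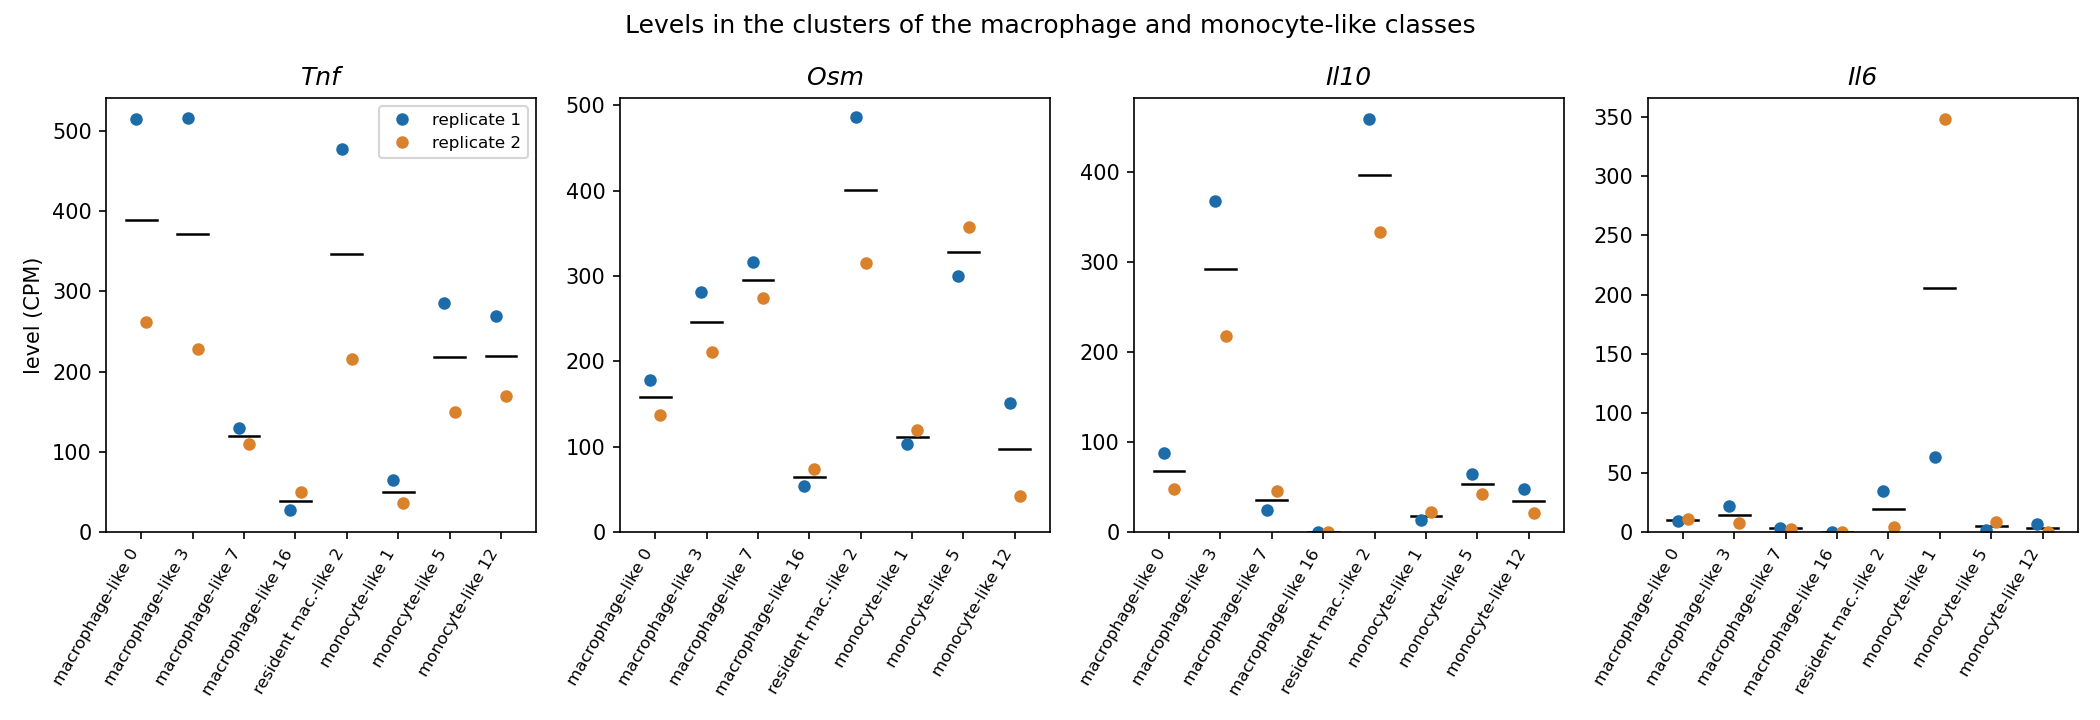
Tnf, Osm, Il10 and Il6 in CPM in each cluster of the macrophage-like, resident macrophage-like and monocyte-like classes; points are libraries, lines are means of both, and each panel has its own axis from 0. Tnf and Osm order the clusters differently, and Il6 stands out in monocyte-like cluster 1, at 63.5 and 348.

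Il6 was mainly a transcript of fibroblast-like cells and, among myeloid cells of replicate 2, of a single monocyte-like cluster. Fibroblast-like cells stood at 1014 and 2007 CPM, in 20 of 23 and 22 of 25 cells, above every myeloid class. Monocyte-like cells stood at 36.5 and 223 CPM, from 93 and 409 UMIs, macrophage-like cells at 10.7 and 8.60 and resident macrophage-like cells at 34.5 and 4.49. Monocyte-like cells were above macrophage-like cells by a log2 fold of 3.44 (SE 0.51, edgeR adjusted p = 2.37e-06), and the replicates differed, with 1.62 and 4.44. Cluster 1 held 89 of the 93 and 404 of the 409 UMIs. With cluster 5 alone in the monocyte-like class the direction turned, to -1.001 (edgeR adjusted p = 0.793, the highest of 12 alternatives, of which the lowest was 6.51e-36).

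In cluster 1, 18.2% and 40.5% of cells held Il6, and the highest cell, in replicate 2, held 82 UMIs. The 13 cells of replicate 2 with at least 10 Il6 UMIs all held Fn1 and Ear2, the genes that lead the cluster. The fibroblast genes Col3a1 and Dcn were in 0 of these 13 cells and Col1a1 in 1, whereas all 22 Il6-positive fibroblast-like cells of that library held Col3a1. Their median depth, 13127 UMIs, was above the 7868.5 of the cluster's cells without Il6. After thinning, 7.83% of monocyte-like, 2.47% of macrophage-like and 62.5% of fibroblast-like cells held Il6, against 15.2% of monocyte-like and 87.5% of fibroblast-like cells before, and 0 of 102 T cell-like cells did, which allows up to 2.94%. Free RNA held Il6 at 59.9 and 143 CPM. In replicate 1 this was above the whole monocyte-like class and close to the 63.5 CPM of cluster 1, and in replicate 2 it was below both, at 223 and 348 CPM. Resident macrophage-like cells held 50 Il6 UMIs in replicate 1 and 1 in replicate 2, so cluster 1 stood out from free RNA in replicate 2 only.

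Dendritic classes held little Il6. Mature DC-like cells held 4 and 7 UMIs (13.4 and 40.8 CPM), cDC2-like cells 11 and 23 UMIs (12.2 and 19.6 CPM) and cDC1-like cells 1 and 0. Mature DC-like cells were above cDC1-like cells by a ratio of 36.1 (95% counting interval 5.25 to 1555) and cDC2-like cells were above cDC1-like cells by 25.3 (4.24 to 1028), neither past the threshold of the edgeR test. Cycling cells stood at 17.7 and 88.0 CPM, with 48 of the 83 UMIs of replicate 2 in 1 cell.

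Over the 7 comparisons, the genes that set mature DC-like cells apart were Il12b and Il15ra, higher against each of cDC2-like, cDC1-like and macrophage-like cells, comparisons that share the mature DC-like sums. Of the 8 genes past the filter on low counts, 3 were called higher in mature DC-like than in cDC2-like cells (Il12b, Il15ra, Il15), where 5.25% of the 4784 genes tested were called higher and 7.55% lower. Against cDC1-like cells 3 were called higher (Il12b, Il15ra, Osm), where 7.73% of all genes were higher and 7.65% lower. Against macrophage-like cells 4 were higher (Il12b, Il15ra, Il15, Il23a; 9.64%) and 3 lower (Il10, Tnf, Osm; 13.7%). Macrophage-like cells had 3 higher than cDC2-like cells (Il10, Tnf, Osm; 12.6%) and 1 lower (Il12b; 11.1%).

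Only Osm was called between cDC1-like and cDC2-like cells, lower in cDC1-like cells, where 6.96% of genes were lower and 4.06% higher. Resident macrophage-like cells had 2 higher than macrophage-like cells (Il10, Osm), where 5.96% of genes were higher and 4.93% lower. Monocyte-like cells had 1 higher (Il6; 5.98%) and 2 lower (Il10, Tnf; 6.88%) than macrophage-like cells. Any difference among the 6 myeloid classes was called for 7 of the 8, and not for Il23a (edgeR adjusted p = 0.147), with 45.7% of all genes called.

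The median log2 fold of the 8 genes was 2.59 for mature DC-like over cDC2-like cells, where that of all genes tested was -0.20. It was 2.46 over cDC1-like (all genes -0.15) and 1.63 over macrophage-like cells (-0.37). It was 0.92 for resident macrophage-like and -0.43 for monocyte-like over macrophage-like cells, where all genes had -0.02 and -0.04, 0.25 for macrophage-like over cDC2-like cells (0.11) and -0.43 for cDC1-like over cDC2-like cells (-0.02). With genes at 0 UMIs in a class set to their bound, the median became 2.06 for mature DC-like over cDC1-like and 0.13 for cDC1-like over cDC2-like cells, where all genes had 0.08 and 0.03, and did not change in the other 5.

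**Figure D4:**
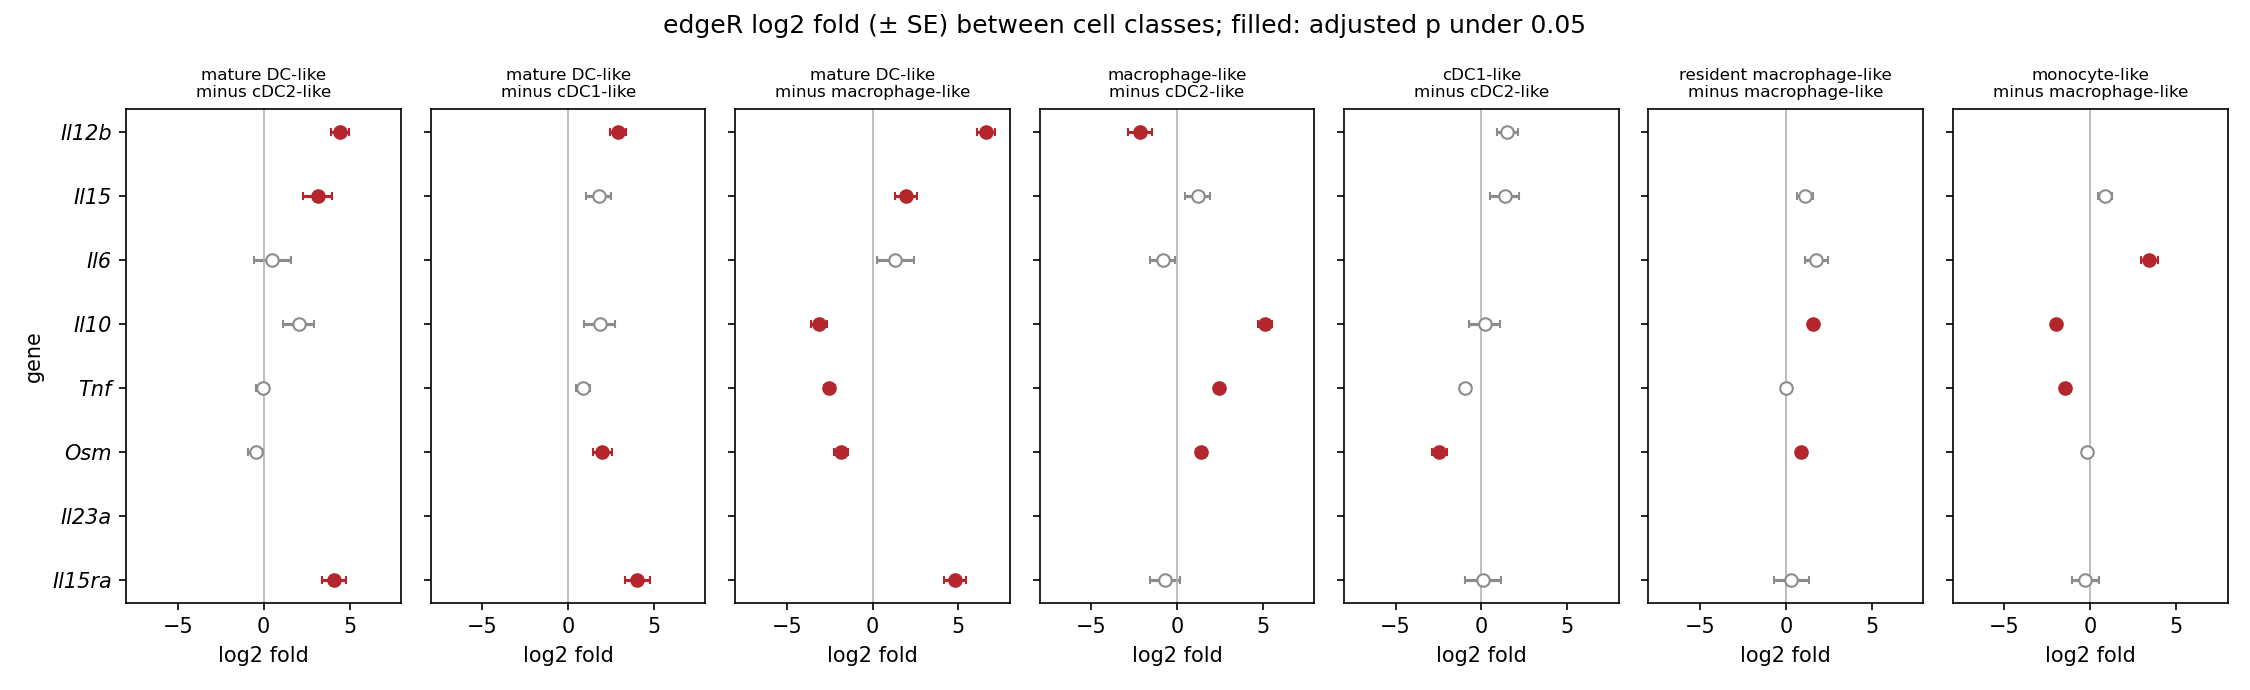
edgeR log2 fold with its standard error for the genes past the filter in 7 comparisons of cell classes; filled points have an adjusted p under 0.05, and genes with at most 3 UMIs in a class are not drawn. Il12b and Il15ra lie to the right in the first 3 panels, at log2 folds from 2.92 to 6.59, and Il10 spans from -3.11 to 5.13.

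The genes that act with these cytokines were described from 6 lists of pathway genes. Of 15 Janus kinases, STAT factors and SOCS inhibitors tested, 2 were called higher in mature DC-like than in cDC2-like cells, 5 than in cDC1-like cells and 6 than in macrophage-like cells, where 2 were lower. Of all genes tested, 5.25%, 7.73% and 9.64% were called higher in these comparisons, and 13.7% lower in the last. The list medians were 0.23, 0.83 and 0.72, beside the all-gene medians given above. Stat4, which carries the interleukin-12 signal, was higher in mature DC-like than in cDC2-like cells by a log2 fold of 1.76 (edgeR adjusted p = 0.000834), than in cDC1-like cells by 4.75 and than in macrophage-like cells by 5.50. Stat5a, which acts downstream of interleukin-15, was higher than in cDC1-like cells by 2.40 and than in macrophage-like cells by 3.27.

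Of 12 receptor genes, mature DC-like cells had 2 higher and 1 lower than cDC1-like cells and 2 higher and 6 lower than macrophage-like cells (list medians 0.00 and -1.45, or 0.93 and -0.14 with genes at 0 UMIs at their bound). Of all genes tested, 7.73% were higher and 7.65% lower than in cDC1-like cells, and 9.64% and 13.7% than in macrophage-like cells. Il2rg, the common gamma chain of the interleukin-15 receptor, was above cDC1-like cells by a log2 fold of 3.14 (edgeR adjusted p = 2.34e-07). Il12rb2, a chain of the interleukin-12 receptor, was above macrophage-like cells by 4.63 (edgeR adjusted p = 0.00168) and above cDC1-like cells by a ratio of 26.3 (95% counting interval 3.52 to 1166). Lifr, the receptor of leukaemia inhibitory factor, which mouse oncostatin M can also use, was at least 3.70-fold lower in mature DC-like than in macrophage-like cells. In resident macrophage-like cells, where Osm was highest, Lifr and Il6st, which encodes gp130, were above macrophage-like cells by 1.26 and 1.68 (edgeR adjusted p = 0.00143 and 0.00146). These were the 2 of 12 receptor genes called in that comparison, where 5.96% of all genes tested were higher and 4.93% lower.

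Of 20 NF-kB, IRF, AP-1 and Maf regulators, mature DC-like cells had 3 higher and 1 lower than cDC2-like cells, 10 and 1 than cDC1-like and 9 and 2 than macrophage-like cells, with medians of 0.04, 0.72 and 0.73. Of all genes tested, 5.25%, 7.73% and 9.64% were higher and 7.55%, 7.65% and 13.7% lower in the same comparisons. Relb, a subunit of the alternative NF-kB pathway, was higher by log2 folds of 2.35, 3.86 and 3.25 (edgeR adjusted p = 6.89e-10, 3.71e-14 and 6.75e-15). In cDC1-like cells 2 regulators were higher and 10 lower than in cDC2-like cells (median -0.95; all genes 4.06% and 6.96%). Irf8, the factor that cDC1 cells depend on, was higher by 3.66 (edgeR adjusted p = 1.74e-13) and Rel, a factor that Il12b transcription is known to need, was lower by a log2 fold of -2.30 (edgeR adjusted p = 9.29e-09). Irf8 was also higher in mature DC-like than in cDC2-like cells, by 3.53 (edgeR adjusted p = 5.55e-13).

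Maf, a known activator of Il10, ordered the macrophage and monocyte classes as Il10 did. It was at least 34.5-fold higher in macrophage-like than in cDC2-like cells, which held no UMI, higher in resident macrophage-like than in macrophage-like cells by a log2 fold of 2.05 (edgeR adjusted p = 1.27e-07) and lower in monocyte-like cells by -1.75 (edgeR adjusted p = 2.26e-05). The last of these was lost at clustering resolution 2.0 and without doublet removal (edgeR adjusted p = 0.0607 and 0.269). Within classes, Maf was not more frequent in cells that held Il10. In macrophage-like cluster 3 it was in 19 of 65 cells with Il10 and 40 of 112 without in replicate 1. In replicate 2 these were 13 of 48 and 43 of 110. Resident macrophage-like cells gave 80 of 168 and 66 of 130, then 11 of 18 and 17 of 27. A link between Maf and Il10 was not tested. Bhlhe40, a known repressor of Il10, was lower in macrophage-like than in cDC2-like cells by -1.98 (edgeR adjusted p = 3.88e-11). Of the 20 regulators, 2 were higher and 6 lower in macrophage-like than in cDC2-like cells, where 12.6% of all genes tested were higher and 11.1% lower.

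Of 10 genes of cytokine mRNA decay and release, mature DC-like cells had 1 higher and 1 lower than cDC2-like cells (list median -0.32), where 5.25% of all genes tested were higher and 7.55% lower. Zfp36l1 was higher there by a log2 fold of 1.63 and its relative Zfp36l2 lower by -1.54 (edgeR adjusted p = 4.89e-05 and 0.00117). Adam17 and Adam10, surface proteases that release TNF and other ligands, were higher in macrophage-like than in cDC2-like cells by 1.38 and 1.41 (edgeR adjusted p = 0.000146 and 0.000116), in the class where Tnf was also higher. In that comparison 3 of the 10 were called higher (median 0.44), as were 12.6% of all genes tested. Zfp36, whose protein binds AU-rich sites such as the one printed above, was higher in resident macrophage-like than in macrophage-like cells by 0.83 (edgeR adjusted p = 0.00262).

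Of 9 partner subunits and related cytokines, Ebi3, the partner of Il27, was higher in mature DC-like than in cDC1-like cells by a log2 fold of 2.07 (edgeR adjusted p = 0.00027) and lower in macrophage-like than in cDC2-like cells by -1.26 (edgeR adjusted p = 0.000101), so it was not highest where the few Il27 UMIs lay. Il1b was lower in resident macrophage-like than in macrophage-like cells by -2.14 (edgeR adjusted p = 5.06e-06), the opposite direction to Il10 and Osm. Il1a was higher in macrophage-like than in cDC2-like cells by a ratio of 98.1 (95% counting interval 33.5 to 476). Of the 14 immediate early and heat shock genes, 6 were called higher in macrophage-like than in cDC2-like cells (median 0.43) and 8 lower in mature DC-like than in macrophage-like cells (median -0.85), the directions of Il10, Tnf and Osm. Of all genes tested, 12.6% were higher in the first of these comparisons and 13.7% lower in the second. In resident macrophage-like cells 4 of the 14 were higher and 1 lower than in macrophage-like cells (median 0.08), against 5.96% and 4.93% of all genes tested.

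The genes whose levels followed each of the 8 genes most closely were taken from Pearson correlations of log2 CPM over 20 sums, the 10 classes in both libraries, which share their libraries and depth. For Il12b they were Slc4a8 (0.87), Psme2b (0.85) and Eno3 (0.83). For Il10 they included Slc16a7 (0.91) and Cmklr1 (0.90), the chemerin receptor. For Tnf they were the chemokine Ccl4 (0.90), Il10 (0.89) and Cx3cr1 (0.89). For Osm they were Lst1 (0.94), Abhd12 (0.93) and Clec4a1 (0.93). For Il6 they were Arsi (0.88), Timp1 (0.87) and Adamtsl4 (0.85). For Il15ra they were Bmp1 (0.86), Efna2 (0.85) and Csnk1g1 (0.83), for Il23a Lad1 (0.83), Ttll5 (0.83) and Ceacam1 (0.81), and for Il15 Mff (0.76), Kcnk6 (0.75) and Zmynd15 (0.72), the weakest likeness of the 8.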

How the data were processed

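Both libraries (10x Genomics 3′ chemistry, version 2, per the labels' protocols) were deposited by the authors as unfiltered UMI count matrices, from Cell Ranger 2.2.0 and mm10 per the submitters' processing notes. Aligner settings, strand setting and annotation release were not given in the sources used here. All genes and lists were chosen with earlier results of these data known.

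Barcodes were kept as cells above 10% of the 99th percentile of UMIs among the top 3000 barcodes (thresholds of 2112 and 1905 UMIs), with at least 200 genes and at most 10% mitochondrial UMIs, and 30 and 12 doublets were removed (Scrublet score, 0.8% per 1000 cells). Leiden clustering at resolution 1.0 (scanpy 1.11.5, leidenalg 0.10.2) used 2000 variable genes, 30 components and 20 neighbours. It did not use 13976 held-out genes, among them all members and listed pathway genes, and only held-out genes were tested. Held-out genes still correlate with the genes that built the clusters. Names were rebuilt from fixed markers, at least 3 raised per cluster.

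UMI counts were summed per class and library and fitted with edgeR 4.0.16 (R 4.3.3; filterByExpr, TMM, quasi-likelihood, library as a block) over 10 classes: 20 sums, 9 residual degrees of freedom, common biological coefficient of variation 0.132, with p-values adjusted by Benjamini-Hochberg over the 4784 held-out among 9551 genes past the filter, and called at an adjusted p under 0.05. The pairing comes from the design, since the classes of a library share 1 capture. Folds within a replicate use a prior count of 2 and have no test. A class at 0 UMIs gives a bound against a floor of 3 counts over the group, or per library where a single library is named, and 1 to 3 UMIs give a pooled ratio with its 95% counting interval. Intervals and floors cover counting error only. Shares were compared after thinning each cell to 1900 UMIs. The tests were tried on simulated counts.

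The genes named are the 9 members in all comparisons (those not called are in the plot of folds), a part of the genes picked from each of 6 pathway lists (at most 2 called genes with the largest fold per comparison), and the 3 held-out genes most like each member. A gene that met this rule is not reported here. Alternatives were RLE size factors, DESeq2 1.42.0, no filter, no block, resolutions of 0.5 and 2.0, cells of at least 1000 UMIs, no doublet removal, no thinning and each replicate alone. After the data were seen, fits without the highest cell, without macrophage-like cluster 0 and with monocyte-like clusters 1 or 5 alone were added.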

Additional observations from a re-analysis of the deposited data

Results flagged for a closer look

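The comparisons above did not use 3 classes that were too small or stayed unnamed, and some of the genes were above the limit of a count of 0 there. Il6 stood at 330.3 and 459.3 CPM in the 10 and 5 endothelial-like cells of replicates 1 and 2, and Tnf at 86.15 CPM in those of replicate 1. In the 16 neutrophil-like cells, all in replicate 2, Tnf stood at 275.3 and Osm at 300.3 CPM. This Tnf level, from 11 UMIs, was above macrophage-like and resident macrophage-like cells of that library, at 232 and 216 CPM. In an unnamed cluster of 34 and 34 cells led by Cd7, Ly6c2 and Klrd1, Tnf stood at 54.47 and 23.8 CPM and Osm at 54.47 and 15.87 CPM, below their levels in free RNA.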

How the results depend on the processing

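The genes called between resident macrophage-like and macrophage-like cells numbered 521, against 324 without the replicate block and 282 without cluster 0. Between monocyte-like and macrophage-like cells they numbered 615, against 351 without the replicate block, 406 without cluster 0, 1061 at resolution 0.5, 1049 with cells of at least 1000 UMIs, and 1089 and 143 with monocyte-like cluster 1 or 5 alone. The other 6 counts stayed within 1.5 times under every alternative run. Among called results, directions turned for Il6 in monocyte-like against macrophage-like cells with cluster 5 alone (-1.001), for Lif in the same comparison at resolution 0.5 (-0.0008093), for Il1a in cDC1-like against cDC2-like cells at resolution 2.0 (-0.1589) and for Stat2 in resident macrophage-like against macrophage-like cells without replicate 1 (-0.07385, against 1.347 without replicate 2); the cause was not tested. Among differences that were not called, the replicates had opposite directions for Il12b in cDC1-like against cDC2-like cells (3.63 and -4.32), Il10 in mature DC-like against cDC2-like cells (2.17 and -1.42), and Il15 (1.23 and -2.12), Il6 (1.52 and -0.99) and Tnf (0.23 and -0.48) in resident macrophage-like against macrophage-like cells, among others. Without the replicate block the calls lost among the 9 genes were Il12b in macrophage-like against cDC2-like cells (adjusted p = 0.126), Osm in resident macrophage-like against macrophage-like cells and Il23a, the last 2 given above. Of the pathway-list calls given with a fold in the Results, only that of Maf in monocyte-like against macrophage-like cells was lost in any alternative with a test. The calls of Lif, Il1a and Stat2 named in this paragraph were kept in 4 of 11, 3 of 8 and 5 of 9 alternatives. Other calls picked by the same rule but not described above were also lost in some. Among them, Fosb and Jun in mature DC-like against cDC2-like cells were kept in 3 and 6 of 8. Depth limits Il27, Il23a and Il15, with few UMIs per class, and Il12b in mature DC-like cells rests on 75 cells.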
